A study of Mus musculus with 1504 samples.

Results

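The 10 genes described here are the Notch receptors Notch1, Notch2, Notch3 and Notch4, the ligands Dll1, Dll4, Jag1 and Jag2, and the targets Heyl and Nrarp, all of which were named members of the set and were found by symbol among the 21947 genes of the deposited count table. They were followed across 1504 single cells sorted from adult mouse lung and sequenced by SMART-seq2, a plate method that reads cDNA over its whole length. All mice were C57BL/6 and carried a fluorescent reporter, and their age is given as 12 to 15 weeks in the sample labels and as 10 to 19 weeks in the design text. The 769 Cldn5-eGFP cells came from Cldn5(BAC)eGFP mice, in which eGFP marks cells that use the promoter of claudin 5, an endothelial tight junction gene, and they are held in columns headed EC1 (243 cells), EC2 (275 cells) and EC3 (251 cells). The 361 cells labelled Pdgfrb(BAC)eGFP/NG2dsRed and the 374 cells labelled Pdgfrb(BAC)eGFP carried reporters of mural cells, the cells wrapped around vessels. Their columns are headed Mural1 (128 cells), Mural2 (233 cells) and Mural3 (374 cells), without a reporter name. Mural1 and Mural2 together hold as many cells as the double reporter label and Mural3 as many as the single one, but they are used here under their own names. No animal, plate or sorting day is given, so each population counts as 1 sample and no p-value can be had. Every interval below is a 95% interval that covers counting error only. It counts reads for levels and folds, and cells for shares. Reads without molecular identifiers are not independent molecules, so intervals on reads are narrower than the error of molecules.

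Notch proteins are receptors that are cut when a ligand on a neighbouring cell binds them, which frees an intracellular part that enters the nucleus and, with the DNA-binding protein RBPJ, switches on genes of the Hes and Hey families and Nrarp. Because the ligands are anchored in a membrane, the pathway passes signals between cells in contact, such as an endothelial cell and the pericyte around it. In vessels it is known for setting arterial identity and tip cell choice through Dll4, Notch1 and Notch4, and for the growth and upkeep of smooth muscle cells and pericytes through Jag1 and Notch3. The 10 genes lie on 5 chromosomes of GRCm38. The receptors are Notch1 (chr2:26457903-26516663, minus strand, 34 exons), Notch2 (chr3:98013527-98150361, plus strand, 34 exons), Notch3 (chr17:32120820-32166852, minus strand, 33 exons) and Notch4 (chr17:34564268-34588503, plus strand, 30 exons). The ligands are Dll1 (chr17:15367354-15376872, minus strand, 11 exons), Dll4 (chr2:119325784-119335962, plus strand, 11 exons), Jag1 (chr2:137081456-137116644, minus strand, 26 exons) and Jag2 (chr12:112907819-112929776, minus strand, 26 exons). The targets are Heyl (chr4:123233556-123249875, plus strand, 5 exons) and Nrarp (chr2:25180758-25183339, plus strand, 1 exon). Whether the authors counted reads by strand is not given in the sources used here, and exons of 6 of the genes overlap those of a neighbour in GENCODE vM21. The longest such overlap, 1487 bases, is between Nrarp and Gm38287 on the opposite strand, and reads from the 2 cannot be told apart if strand was ignored.

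Promoters of 4 members are shown as 2 genes that were highest in capillary cells, Notch4 and Dll4, beside 2 that were highest in pericyte-like cells, Notch3 and Nrarp. Each line holds the 250 bases before the annotated start, from RefSeq on GRCm38.p6, read 5′ to 3′ along the gene's strand. Capitals mark CAGGAA, a core bound by ETS factors, in the Notch4 window and GGGCGG, the GC box, in the other windows, each searched on both strands (so TTCCTG and CCGCCC are capitals too).
Notch4, chr17:34564045-34564294, plus strand: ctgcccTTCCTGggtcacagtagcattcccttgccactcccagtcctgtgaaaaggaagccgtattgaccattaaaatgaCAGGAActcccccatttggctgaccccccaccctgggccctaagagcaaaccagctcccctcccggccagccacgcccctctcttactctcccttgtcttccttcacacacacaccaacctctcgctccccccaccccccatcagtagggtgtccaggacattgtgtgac
Dll4, chr2:119325534-119325783, plus strand: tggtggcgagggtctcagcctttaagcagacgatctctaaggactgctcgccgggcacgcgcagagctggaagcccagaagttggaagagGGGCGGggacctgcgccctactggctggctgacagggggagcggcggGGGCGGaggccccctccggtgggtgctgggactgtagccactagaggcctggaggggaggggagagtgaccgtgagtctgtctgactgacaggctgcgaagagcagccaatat
Notch3, chr17:32166891-32167140, minus strand: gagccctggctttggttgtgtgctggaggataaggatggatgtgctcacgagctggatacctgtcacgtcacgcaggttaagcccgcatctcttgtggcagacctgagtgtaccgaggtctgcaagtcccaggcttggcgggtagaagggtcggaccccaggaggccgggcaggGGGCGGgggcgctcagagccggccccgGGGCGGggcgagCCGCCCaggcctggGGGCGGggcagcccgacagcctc
Nrarp, chr2:25180508-25180757, plus strand: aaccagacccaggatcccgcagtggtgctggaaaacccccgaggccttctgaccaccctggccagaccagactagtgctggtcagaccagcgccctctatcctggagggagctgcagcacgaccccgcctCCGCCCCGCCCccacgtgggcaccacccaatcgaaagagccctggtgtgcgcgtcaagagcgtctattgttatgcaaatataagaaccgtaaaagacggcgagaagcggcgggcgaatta
The Notch4 window held 2 CAGGAA matches, no GC box and 4 CpG dinucleotides at 58.4% GC. Dll4 had 2 GC boxes and 14 CpGs, Notch3 had 4 GC boxes and 17 CpGs, and Nrarp had 2 GC boxes, which overlap each other by 1 base, and 18 CpGs. Over all 32851 promoter windows of the table, CAGGAA was present in 25.71%, GGGCGG in 32.742%, and the median window had 6 CpGs at 52.4% GC. TGGGAA, the core of the RBPJ site, was not in any of the members' windows and was in 21.594% of all windows. These are matches of letters in a short window and say nothing of what binds there.

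Reads per cell ranged between 100229 and 609242 with a median of 240178, and differed between the cell classes, so every cell was thinned to 50000 reads before shares of cells with a read were computed. Cells were grouped without the Notch genes into 14 clusters, and clusters were named from markers of each cell type. This gave 22 lymphatic-like, 74 aerocyte-like and 662 general capillary-like cells among the endothelial cells (aerocytes are the large capillary cells of the gas exchange surface). It also gave 71 smooth muscle-like, 67 pericyte-like, 411 fibroblast-like and 43 chondrocyte or perichondrial-like cells. No cluster was arterial or venous by its markers, so those beds are not compared. A further 154 cells, 10.2% of all, carried many epithelial or leukocyte markers and were kept apart as mixed. They made up 1.82% of Cldn5-eGFP cells, 23.5% of Mural1 and Mural2 and 14.7% of Mural3. The endothelial classes came from the EC columns, apart from 3 general capillary-like cells of Mural1. The mural columns held more than mural cells: 318 of the 374 Mural3 cells were fibroblast-like, 1 was smooth muscle-like and none was pericyte-like.

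Of the members, Notch4, Dll4, Dll1 and Jag2 were at their highest in capillary cells, and Notch2, Notch3, Heyl and Nrarp in pericyte-like cells. Notch1 and Jag1 were found on both sides: lymphatic-like and pericyte-like cells had the most of each, and their levels overlapped over column sets. Per kilobase of exon, the scale on which genes can be set side by side, the highest members of general capillary-like cells were Dll4 at 73.7 CPM per kb (CPM is reads per 1000000 reads), Notch4 at 58.3 and Notch1 at 31.3. In pericyte-like cells they were Nrarp at 188 CPM per kb, Heyl at 183 and Notch3 at 164. Smooth muscle-like cells shared Heyl at 162 CPM per kb with pericyte-like cells, but had less Notch3 (61.4) and Nrarp (20.8).

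**Figure D1:**
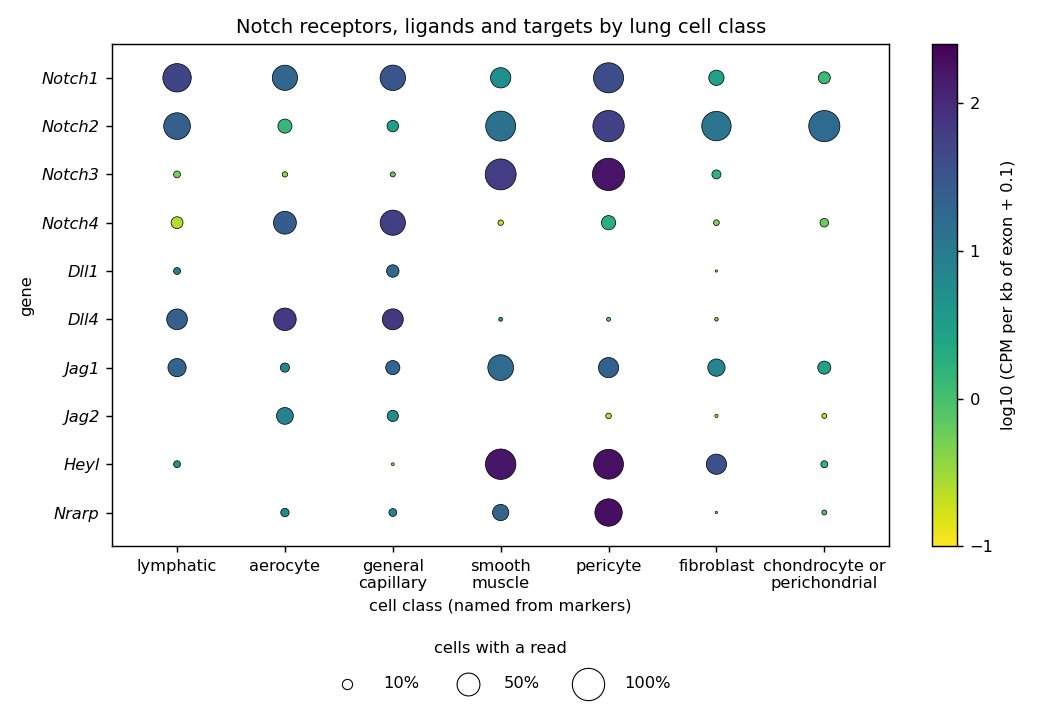
Level of each member (rows) in each cell class (columns): dot colour is CPM per kb of exon on a log scale, and dot area the share of cells with a read after thinning to 50000 reads. Notch4 and Dll4 are dark in aerocyte-like and general capillary-like cells, Notch3, Heyl and Nrarp in smooth muscle-like and pericyte-like cells, and Notch1 on both sides.

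Among the receptors, Notch1, a receptor known from both endothelium and mural cells, was read on both sides here. It stood at 487 CPM in lymphatic-like cells, 185 in aerocyte-like, 306 in general capillary-like, 49.8 in smooth muscle-like, 396 in pericyte-like, 26.0 in fibroblast-like and 11.3 in chondrocyte or perichondrial-like cells. A read was found in 77.3%, 60.8%, 61.8%, 39.4%, 86.6%, 22.4% and 14.0% of the cells of those classes, in that order. Pericyte-like cells thus stood among the endothelial classes and not beside smooth muscle-like cells. By column set, pericyte-like cells had 400.3 CPM in Mural1 and 394 in Mural2, and general capillary-like cells had 351 in EC1, 283 in EC2 and 285 in EC3. The small lymphatic-like sets, of 6 to 9 cells, had 333, 415 and 645 CPM in EC1, EC2 and EC3, a range that overlaps both the pericyte-like and the general capillary-like sets, whereas those classes did not overlap each other.

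Notch2, a receptor known from many mesenchymal tissues, was highest in pericyte-like cells with 603 CPM and a read in 94.0% of cells. Smooth muscle-like cells had 138 CPM, fibroblast-like cells 125 and chondrocyte or perichondrial-like cells 175, with a read in 85.9%, 82.7% and 93.0% of cells. In endothelium it separated lymphatic-like cells, at 252 CPM in 68.2% of cells, from aerocyte-like cells at 13.3 CPM in 18.9% and general capillary-like cells at 30.8 CPM in 12.7%. Every column set kept this split: lymphatic-like cells had 237, 267 and 253 CPM in EC1, EC2 and EC3, and general capillary-like cells 27.1, 36.3 and 28.1.

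Notch3, the receptor of smooth muscle cells and pericytes, was read in every pericyte-like cell. Its level was 495 CPM in smooth muscle-like cells (91.5% of cells), 1323 in pericyte-like cells (100.0%) and 12.3 in fibroblast-like cells (7.79%). The endothelial classes had between 1.99 and 4.05 CPM with a read in 2.42% to 4.55% of cells. The pericyte-like level was 1376 CPM in Mural1 and 1288 in Mural2, and the smooth muscle-like level 459 and 515, so these classes did not overlap over sets. In fibroblast-like cells it was 51.6, 20.0 and 6.38 CPM in Mural1, Mural2 and Mural3, an uneven low level.

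Notch4, a receptor known mainly from endothelium, was a capillary gene here. It had 175 CPM in aerocyte-like cells (50.0% of cells) and 384 in general capillary-like cells (60.9%). The sets gave 111, 217 and 179 CPM for aerocyte-like cells and 334, 383 and 436 for general capillary-like cells in EC1, EC2 and EC3, without overlap. Lymphatic-like cells had 6 reads in 3 cells, or 1.03 CPM. Outside endothelium it was at most 11.2 CPM, in pericyte-like cells, where 19.4% of cells had a read, and it was 0.692 CPM in smooth muscle-like cells with a read in 2.82%.

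Among the ligands, Dll4, the main Delta ligand of vessels, was shared by all endothelial classes. It had 91.5 CPM in lymphatic-like cells (40.9% of cells), 255 in aerocyte-like (48.6%) and 276 in general capillary-like cells (41.8%). The aerocyte-like sets had 198, 244 and 286 CPM and the general capillary-like sets 234, 266 and 323 in EC1, EC2 and EC3, which overlap. Within each set the aerocyte-like level was the lower one, on the scale of total reads. Smooth muscle-like, pericyte-like and fibroblast-like cells had 8.51, 2.16 and 1.27 CPM with a read in 1.41%, 1.49% and 1.22% of cells.

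Dll1, a Delta ligand, was a gene of general capillary-like cells and divided them from aerocyte-like cells. It had 63.6 CPM in general capillary-like cells, with a read in 98 of 662 cells (14.8%, exact interval 12.2% to 17.7%), and 63.6, 68.2 and 59.1 CPM in EC1, EC2 and EC3. The 74 aerocyte-like cells held 1 read of it in all, 0.0423 CPM. After thinning, 0 of them had a read, which allows a share of up to 4.05% (3 of 74 cells), or of 4.86% by the exact interval. The 30.6 CPM of lymphatic-like cells came from 1 of 22 cells, and smooth muscle-like and pericyte-like cells had no read.

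Jag2, a Jagged ligand, was read in the capillary classes at a low level. It had 40.9 CPM in aerocyte-like cells (27.0% of cells) and 29.1 in general capillary-like cells (12.1%), and no more than 0.629 CPM in any other named class. The sets, 22.6, 54.3 and 41.1 CPM in aerocyte-like cells and 15.5, 41.3 and 29.2 in general capillary-like cells, overlap, and in both classes EC1 was lowest and EC2 highest. Within each set, however, the aerocyte-like level was the higher one.

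Jag1, the ligand that endothelium presents to mural cells and that mural cells also carry, was the one ligand found on both sides. Its level was 115 CPM in lymphatic-like cells, 37.1 in aerocyte-like, 109 in general capillary-like, 94.2 in smooth muscle-like, 133 in pericyte-like and 41.2 in fibroblast-like cells. Similar levels hid different spreads over cells: 63.4% of smooth muscle-like cells had a read, but 38.8% of pericyte-like and 19.2% of general capillary-like cells. In general capillary-like cells the median cell had no read and the highest had 3232 CPM, whereas the median smooth muscle-like cell had 34.4 CPM and the highest 821. The lymphatic-like sets had 38.5, 108 and 176 CPM in EC1, EC2 and EC3 and enclose the pericyte-like sets, 132 and 133 CPM in Mural1 and Mural2. In smooth muscle-like cells the level was 61.0 CPM in Mural1 (16 cells) and 107 in Mural2, so their order against general capillary-like cells (121, 107 and 101 CPM in EC1, EC2 and EC3) is not settled beyond the spread of sets.

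**Figure D2:**
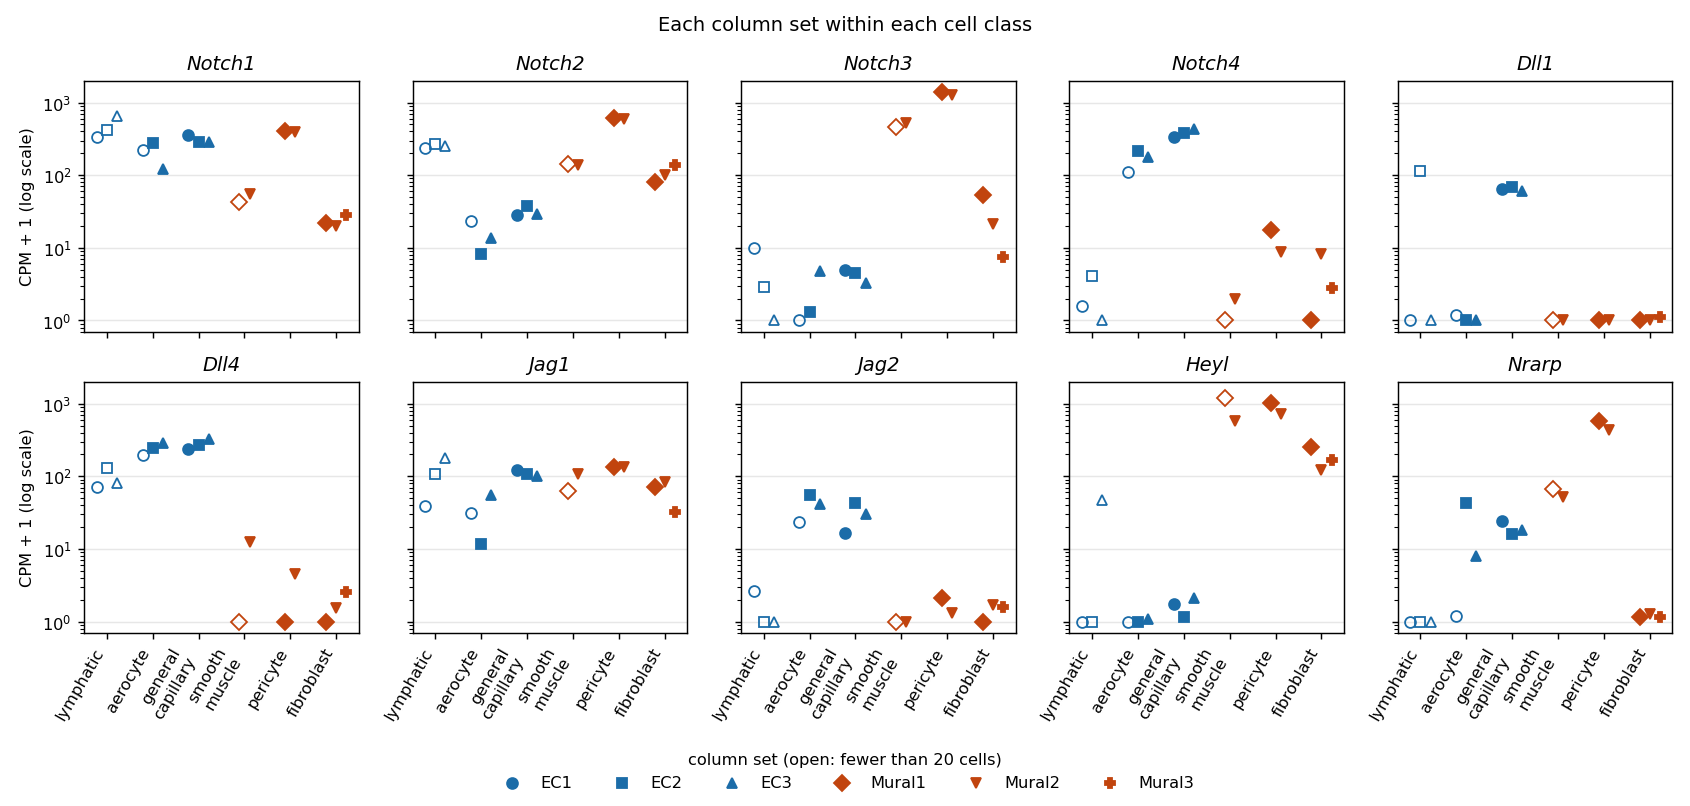
CPM + 1 of each member (1 panel a gene, log axis) in every column set of every cell class; open points are sets with under 20 cells of the class. Notch3, Heyl and Nrarp in pericyte-like sets and Notch4 and Dll4 in general capillary-like sets lie close together, and Heyl in smooth muscle-like cells differs between Mural1 (1193 CPM) and Mural2 (582 CPM).

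Of the targets, Heyl, a Hey family repressor switched on by Notch, was about as high in smooth muscle-like as in pericyte-like cells. It had 734 CPM in smooth muscle-like cells (88.7% of cells), 831 in pericyte-like cells (85.1%) and 169.6 in fibroblast-like cells (39.2%). The smooth muscle-like sets had 1193 and 582 CPM and the pericyte-like sets 1006 and 714 in Mural1 and Mural2, so the 2 classes overlap and Mural1 was higher in each. Fibroblast-like cells had 255, 122 and 167 CPM in Mural1, Mural2 and Mural3. In endothelium it was close to none, with 1 aerocyte-like read, 0.641 CPM in general capillary-like cells, and a lymphatic-like level of 19.3 CPM that came from 1 cell of EC3.

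Nrarp, a Notch target whose product damps the signal by binding the receptor complex, was mainly a gene of pericyte-like cells. It had 53.8 CPM in smooth muscle-like cells (25.4% of cells), 485 in pericyte-like cells (71.6%) and 0.181 in fibroblast-like cells (0.487%). The pericyte-like level was 568 CPM in Mural1 and 429 in Mural2, and the smooth muscle-like level 66.5 and 50.2, with no overlap. Aerocyte-like cells had 15.4 CPM and general capillary-like cells 19.0, and the 22 lymphatic-like cells had no read.

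The comparison of populations asks how reporter-sorted endothelium differs from the cells of the mural columns, which are not all mural cells. Mural1 and Mural2 held 25 and 42 pericyte-like and 16 and 54 smooth muscle-like cells. They also held 42 and 51 fibroblast-like, 38 and 5 chondrocyte or perichondrial-like and 4 and 81 mixed cells. How far this make-up sets the folds was not tested. Since no test was possible, a rule of size was used: a fold of 4 or more, with 50 CPM or more and reads in 25% or more of the thinned cells on the higher side. In Cldn5-eGFP cells over Mural1 and Mural2, 2 members were higher, 4 were lower and 4 did not pass. Over all 21947 genes, 1.58% passed as higher and 2.66% as lower. Of the 4284 genes over the minimum of CPM and share on either side, 8 members among them, 8.10% passed as higher and 13.6% as lower. Dll4 was higher in Cldn5-eGFP cells, with 220.5, 254 and 303 CPM in EC1, EC2 and EC3 against 12.8 and 8.12 in Mural1 and Mural2, a 26.4-fold difference (24.7 to 28.1), which was 41.8-fold without doublet-like cells. Doublet-like cells were chosen by endothelial markers read beside mural or fibroblast markers, and none was in a named endothelial class. Leaving them out thus removes mainly mural-column cells with endothelial reads. A rise in folds of endothelial genes, here and below, is built into that choice. Notch4, higher too, had 293, 346 and 353 CPM against 9.39 and 9.14. Notch2 was lower, with 34.1, 39.5 and 34.7 CPM in the EC sets against 177 and 178 in the mural sets, 4.90-fold (4.75 to 5.05). Notch3, at 3.07 CPM in Cldn5-eGFP cells against 256 and 298 in Mural1 and Mural2, was 91.9-fold lower, and Heyl was lower as well, with 0.627, 0.139 and 2.84 CPM against 391 and 280.3. None of these sets overlap between the sides. The Heyl fold of 265 depends on EC3, without which it was 884.

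Nrarp was 4.18-fold lower in Cldn5-eGFP cells (17.3 CPM against 81.5 in Mural1 and 67.0 in Mural2), but with a read in 25.2% of Mural1 and Mural2 cells it passed narrowly. The call was lost at 3.82-fold without EC3, at 3.87-fold without Mural1, and, through the share of cells, without Mural2 (4.70-fold), without doublet-like cells (4.55-fold) and without mixed cells (4.92-fold). Notch1 was 3.61-fold higher and did not pass, except without Mural2, at 4.01-fold. Dll1 and Jag2 were 43.0-fold and 25.0-fold higher but were read in 12.9% and 13.3% of Cldn5-eGFP cells, below the share asked for. Jag1, at 97.5 CPM against 80.2 CPM, differed 1.22-fold.

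Against Mural3, the set made mostly of fibroblast-like cells, 3 members were higher in Cldn5-eGFP cells and 1 lower, where 2.04% of all genes passed as higher and 2.58% as lower. Notch1 was 10.4-fold higher (10.1 to 10.8), with 332, 283 and 259.9 CPM in EC1, EC2 and EC3 against 27.9 in Mural3. Dll4 was 157-fold higher (138 to 180.3) and 311-fold without doublet-like cells, and Notch4 had 333 CPM against 1.87. The Notch4 fold of 178 was 351 without doublet-like cells. Heyl had 1.22 CPM against 154 and was lower, 126-fold with EC3 and 421-fold without it. The other 6 members did not pass: Notch2 was 3.76-fold lower, Notch3 2.01-fold lower, and Jag1 3.10-fold, Nrarp 20.6-fold, Jag2 34.4-fold and Dll1 83.1-fold higher.

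Between the mural sets, Mural1 and Mural2 had more Notch3 and Nrarp than Mural3. Notch3 had 256 and 298 CPM against 6.16, 45.8-fold (42.7 to 49.1), and Nrarp 81.5 and 67.0 CPM against 0.843, 86.0-fold (71.4 to 104). These 2 members passed as higher and none as lower, where 0.743% of all genes passed as higher and 0.146% as lower. The Nrarp call was lost on the share of cells without Mural2 (96.6-fold), without doublet-like cells (122-fold) and without mixed cells (498-fold). The other 8 members did not pass. Dll4 was 5.97-fold (9.89 against 1.66 CPM) and Notch4 4.95-fold higher (9.23 against 1.87 CPM), both below 50 CPM. Notch1 was 2.88-fold, Jag1 2.55-fold, Heyl 2.10-fold, Dll1 1.93-fold, Jag2 1.38-fold and Notch2 1.30-fold higher, and Notch2 turned to the lower side under median-ratio scaling, which with TMM scaling was the alternative to scaling by total reads. The pericyte-like cells, 25 in Mural1 and 42 in Mural2 with none in Mural3, move with these values, and how far they set them was not tested. These 3 comparisons share their sets and are not independent of each other.

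Within cell classes the comparisons ask whether neighbouring vessel cell types differ in Notch genes, and the background is the 10953 genes, the Notch genes among them, that were held out of the clustering. Class medians of reads per cell were 255914 in lymphatic-like, 331822 in aerocyte-like and 191753 in general capillary-like cells, and 268769, 142508 and 371103 in smooth muscle-like, pericyte-like and fibroblast-like cells. Aerocyte-like over general capillary-like cells gave no member past the rule in either direction, where 0.548% of genes passed as higher and 0.502% as lower. The largest difference by fold was in Dll1, with 1 read against 8335 reads, a ratio of 1505 with an interval of 270.0 to 59450, which missed the share asked for on the higher side. Jag1 was 2.95-fold, Notch2 2.32-fold, Notch4 2.19-fold, Notch3 2.04-fold and Notch1 1.65-fold lower and Jag2 1.40-fold higher in aerocyte-like cells. Heyl was below 1 CPM in both, and Nrarp was 1.23-fold lower, a direction that turned under median-ratio scaling. Dll4 was 1.08-fold lower in aerocyte-like cells, and this direction turned under both other scalings.

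Lymphatic-like over general capillary-like cells differed in 2 receptors. Notch2 was 8.18-fold higher (7.70 to 8.68) and Notch4 375-fold lower (172 to 1021), with 1.57% of genes passing as higher and 1.36% as lower. Both rest on 22 lymphatic-like cells. Notch1 was 1.59-fold higher, Jag2 56.8-fold (0.513 against 29.1 CPM), Dll4 3.02-fold, Dll1 2.08-fold and Notch3 1.25-fold lower without passing. The lymphatic-like Dll1 reads came from 1 of 22 cells. The Notch3 intervals overlap, at 1.96 to 5.07 CPM in lymphatic-like and 3.71 to 4.41 CPM in general capillary-like cells. Nrarp, with no lymphatic-like read, was at least 37.0-fold lower against a floor of 3 reads, below the minimum level on the general capillary side. Heyl was 30.1-fold higher through a single cell, and Jag1 differed 1.05-fold, with an interval that includes equality.

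Smooth muscle-like over pericyte-like cells showed 3 members lower and none higher, where 2.30% of genes passed as higher and 2.10% as lower. Nrarp was 9.01-fold lower (8.44 to 9.62), Notch1 7.96-fold lower (7.43 to 8.53) and Notch2 4.37-fold lower (4.18 to 4.57). The Notch2 call was lost under both other scalings. Notch4 was 16.2-fold lower (0.692 against 11.2 CPM) and Dll4 3.95-fold higher (8.51 against 2.16 CPM), both under the minimum level, and Jag2 was at or below 0.629 CPM and Dll1 at 0 on both sides. After thinning, Dll4 was read in only 1 of 71 smooth muscle-like and 1 of 67 pericyte-like cells. Notch3 was 2.67-fold and Jag1 1.41-fold lower, and Heyl 1.13-fold lower with a direction that turned under both other scalings. Thus Notch1, Notch2 and Nrarp were past the rule and Notch3 and Heyl were not. Endothelial markers were read in 20.4% of marker and cell pairs in smooth muscle-like and 21.6% in pericyte-like cells, against 87.0% in general capillary-like cells. All 11 endothelial markers had reads in smooth muscle-like cells and 10 of 11 in pericyte-like cells, at a summed 501.9 and 1824 CPM. Epithelial markers summed to 3820 CPM in smooth muscle-like and 2452 CPM in pericyte-like cells, against 488.7 CPM in general capillary-like cells, and the part of either in these differences was not tested. Doublet-like cells, those with many endothelial markers beside many pericyte, smooth muscle or fibroblast markers, were 6 of 71 and 3 of 67 cells. Cells mixed only with epithelial cells, leukocytes or other mural cells are not marked by this rule.

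Pericyte- and smooth muscle-like over fibroblast-like cells, the comparison of vessel-wrapping cells with the other main class of the mural columns, gave 4 members higher and none lower, where 1.86% of genes passed as higher and 1.26% as lower. Nrarp had 207 CPM against 0.181, 1145-fold higher (786 to 1739), which was 1724-fold without Mural2. Notch3 had 789 CPM against 12.3, 63.9-fold (61.0 to 67.1), and 23.7-fold without Mural3. Notch1 had 173 CPM against 26.0, 6.66-fold (6.39 to 6.94). Heyl had 768 CPM against 169.6, 4.53-fold (4.45 to 4.61), a call that ended at 3.84-fold without Mural1 and under both other scalings. Notch2 was 2.42-fold, Jag1 2.62-fold, Dll4 4.92-fold and Notch4 1.90-fold higher and did not pass, and Dll1 and Jag2 were below 1 CPM on both sides. The Dll4 fold rests on few cells, with a read after thinning in 1 smooth muscle-like and 1 pericyte-like cell. The sides came mostly from different columns, since 1 of the 71 smooth muscle-like and none of the 67 pericyte-like cells were in Mural3 against 318 of the 411 fibroblast-like cells. Without Mural3, where both sides come from Mural1 and Mural2, the same 4 members passed: Notch1 was 8.82-fold (174 against 19.7 CPM), Heyl 4.31-fold (774 against 179.6 CPM) and Nrarp 976-fold higher (208 against 0.214 CPM), beside the 23.7-fold of Notch3.

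**Figure D3:**
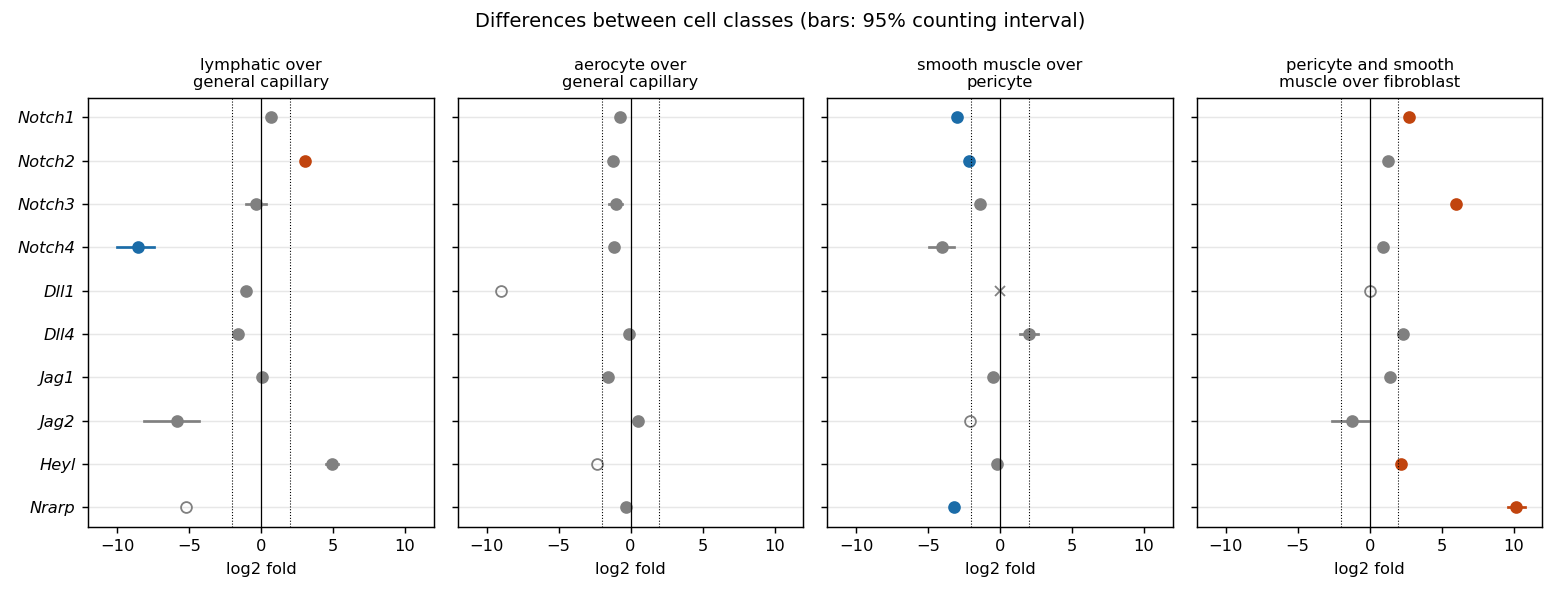
log2 fold of each member in the 4 class comparisons, first-named class over the second; orange and blue points passed the size rule as higher and lower, grey points did not, open points have a side with under 3 reads that was set to 3, a cross has both sides under 3 reads, bars are 95% counting intervals and dotted lines mark a 4-fold difference. No member is past the rule for aerocyte-like cells, and Notch3, Nrarp, Notch1 and Heyl are past it for mural-like over fibroblast-like cells.

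The members' median log2 fold was 1.07 in Cldn5-eGFP over Mural1 and Mural2, 3.87 over Mural3 and 1.44 in Mural1 and Mural2 over Mural3, beside medians of -0.02, 0.44 and 0.43 over all genes. It was -1.08 for aerocyte-like and -0.69 for lymphatic-like over general capillary-like cells, beside -0.53 and -0.02. For smooth muscle-like over pericyte-like cells it was -1.75 beside -0.59, and for pericyte- and smooth muscle-like over fibroblast-like cells 1.78 beside 0.54. Genes with under 3 reads on a side entered these medians at 3 reads.

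Fibroblast-like cells were not uniform in Heyl. The 6 fibroblast-like clusters, numbered 2, 3, 5, 12, 13 and 14 with 136, 113, 102, 21, 21 and 18 cells, had 73.5, 314, 188, 178, 72.7 and 0.151 CPM of Heyl. Cluster 3, led by Adh7, Adh1 and Faim2, was thus highest, and cluster 14, led by Pi16 and made of Mural3 cells alone, had almost none. Clusters 2 and 3 were nearly all Mural3 (134 of 136 and 108 of 113 cells), so they differ within 1 column set. In cluster 5 the sets disagreed, with 273, 80.7 and 258 CPM in Mural1, Mural2 and Mural3. Notch3 stood out in cluster 12, at 131 CPM against at most 10.3 CPM in the other 5. After thinning it was read there in 8 of 21 cells, and the median cell had none. Among the 6, cluster 12 also had the most marker and cell pairs with a read for smooth muscle (37.2%) and pericytes (33.8%). Notch2 was found in all 6, between 91.0 and 201 CPM. Jag1 was 29.8, 29.5, 66.5, 78.5, 9.70 and 67.7 CPM in the same order of clusters.

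**Figure D4:**
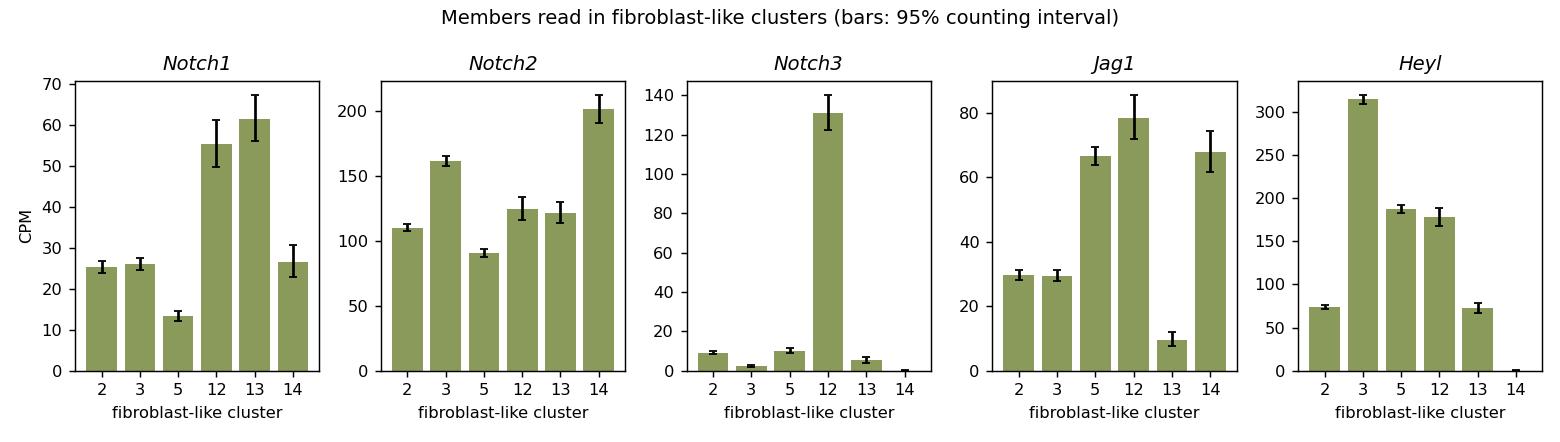
CPM of Notch1, Notch2, Notch3, Jag1 and Heyl in the 6 fibroblast-like clusters. Heyl is highest in cluster 3 (314 CPM) and lowest in cluster 14 (0.151 CPM), Notch3 is seen mainly in cluster 12 (131 CPM), and Notch2 is present in all.

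At the level of single cells, most cells carried a receptor and fewer carried a ligand. A receptor read was found in 86.4% of lymphatic-like, 83.8% of aerocyte-like, 85.6% of general capillary-like, 98.6% of smooth muscle-like, 100.0% of pericyte-like and 87.8% of fibroblast-like cells. Ligand reads were in 59.1%, 59.5%, 63.6%, 63.4%, 41.8% and 30.4% of those classes. A receptor and a ligand occurred in the same cell in 50.0%, 48.6%, 54.8%, 63.4%, 41.8% and 27.0%. A read of Heyl or Nrarp was rare in endothelium, with 4.55% of lymphatic-like, 6.76% of aerocyte-like and 6.50% of general capillary-like cells. It was found in 91.5% of smooth muscle-like, 97.0% of pericyte-like and 39.4% of fibroblast-like cells. Chondrocyte or perichondrial-like cells, also of the mural columns, had one in 6.98%, near the endothelial shares. At least 2 receptors were read in 98.5% of pericyte-like and 84.5% of smooth muscle-like cells, in 72.7% of lymphatic-like, 43.2% of aerocyte-like and 45.9% of general capillary-like cells, and in 26.3% of fibroblast-like cells. At least 2 ligands were read in 24.3% of aerocyte-like and 20.1% of general capillary-like cells, and in 1.41% of smooth muscle-like and 1.49% of pericyte-like cells.

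**Figure D5:**
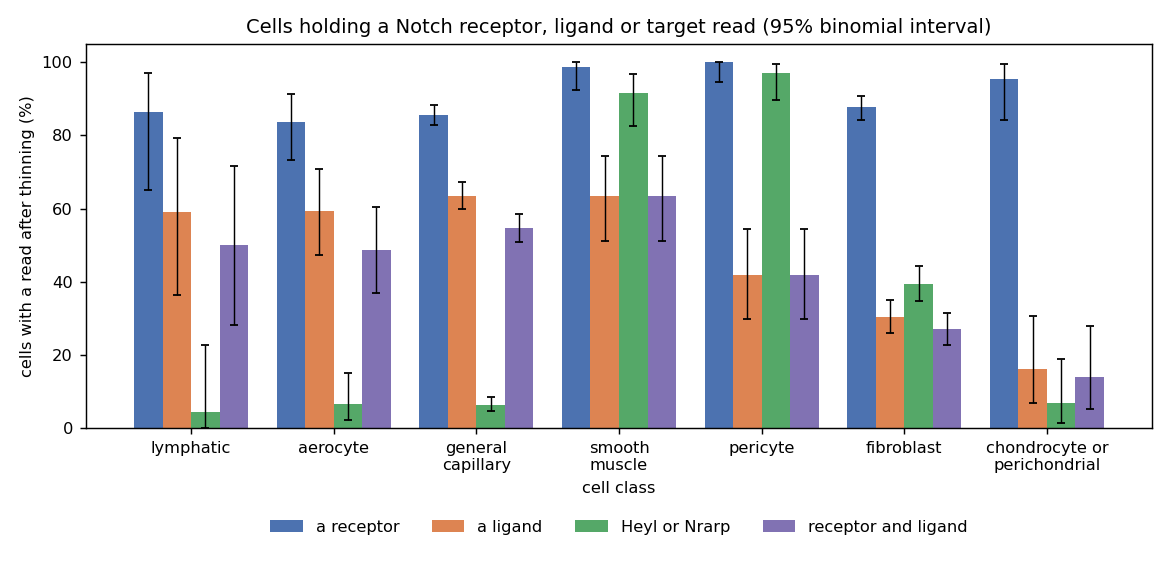
Share of cells (percent, after thinning to 50000 reads) with a read of a receptor, a ligand, Heyl or Nrarp, and a receptor together with a ligand, in each cell class, with 95% exact binomial intervals as error bars. Receptors are read in 83.8% or more of every class drawn. Heyl or Nrarp is read in 91.5% and 97.0% of smooth muscle-like and pericyte-like cells. The share is under 10% in endothelial classes and in chondrocyte or perichondrial-like cells.

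Whether members occurred in the same cells was described by the share of one in cells with and without the other. In general capillary-like cells Hey1, a Hey family target known in arteries, was read in 45.8% of cells with a Dll4 read (39.9% to 51.9%) against 26.2% of cells without one (21.9% to 30.9%), and in 35.2% of cells with a Notch4 read against 33.2% without. Notch4 was read in 62.8% of cells with Notch1 against 57.7% without. In aerocyte-like cells Jag2 was read in 44.4% of cells with Dll4 (27.9% to 61.9%) against 10.5% without (2.94% to 24.8%). In pericyte-like cells Nrarp was read in 70.2% of cells with Heyl against 80.0% of the 10 cells without. Fibroblast-like cells had Heyl in 38.8% of cells with Notch2 against 40.8% without, and in 45.8% with Jag1 against 36.5% without. Cells of a class share sets and differ in quality, so these shares describe the cells and are not tests.

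Of 53 further genes of the pathway in 6 lists, 6 passed the rule in Cldn5-eGFP cells over Mural1 and Mural2, 4 as higher (7.55%, beside 1.58% of all genes) and 2 as lower (3.77%, beside 2.66%). The higher ones were Egfl7, a secreted endothelial protein that binds Notch (1820 CPM against 45.1), Hey1 (239 against 16.6), Mfng, a glycosyltransferase that alters ligand preference (177 against 6.92), and Numb, an inhibitor that routes Notch to turnover (351 against 40.0). Dtx3 (22.4 against 145) and Dtx4 (0.765 against 66.2), of the Deltex family of ubiquitin ligases, were lower. Of the 53 genes, 19 were over the minimum of CPM and share on either side. Among all 4284 genes over it, 8.10% passed as higher and 13.6% as lower. In every other comparison too, genes over the minimum passed more often than all genes. Without EC3 the Dtx4 fold was 150.7 in place of 86.5. The Mfng fold of 25.6 was 70.8 without Mural2 and 77.3 without mixed cells. The Egfl7 fold of 40.3 was 83.6 without doublet-like cells and 69.5 without mixed cells. The same 6 genes passed in the same directions over Mural3 (beside 2.04% and 2.58% of all genes), where the Dtx3 call, 4.24-fold, ended at 3.86-fold without EC1. There the Mfng fold of 83.3 was 170.0 without doublet-like and 1055 without mixed cells, the Egfl7 fold of 177 was 295 without either, and the Dtx4 fold of 126 was 219 without EC3. No gene of the 6 lists passed in Mural1 and Mural2 over Mural3.

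Aerocyte-like cells had 69.6-fold less Hey1 than general capillary-like cells (4.31 against 300.1 CPM), the 1 of 53 genes to pass (1.89%, beside 0.502% of all genes tested as lower), and the fold ranged between 31.4 without EC3 and 1833 without EC2. Mfng stood at 417 CPM in aerocyte-like cells against 145 CPM in general capillary-like cells. Lymphatic-like cells had lower Hey1 (1 read) and Numb (4.85-fold, 79.3 against 385 CPM), 2 of 53 (3.77%, beside 1.36%). In smooth muscle-like over pericyte-like cells 2 were higher (3.77%, beside 2.30% of all genes tested) and 4 lower (7.55%, beside 2.10%). Rbpj, the DNA-binding partner of Notch, was 7.52-fold higher (70.2 against 9.34 CPM) and Aak1, a kinase of endocytosis, 5.58-fold higher. Dtx4 (6.94-fold), Aph1b, a subunit of gamma-secretase (6.97-fold), Maml3, a coactivator of the Notch complex (6.68-fold), and Ep300, a histone acetyltransferase (4.06-fold), were lower. Without Mural1 the calls of Maml3 (4.22-fold) and, through the share of cells, Aph1b (8.53-fold) ended, and that of Ep300 ended without doublet-like cells (3.39-fold) and was 6.53-fold without Mural1. Over fibroblast-like cells, pericyte- and smooth muscle-like cells had higher Hey2, a Hey family repressor (75.9 against 4.05 CPM, 18.7-fold, between 5.27 without Mural3 and 45.5 without Mural2). Neurl1b, a ubiquitin ligase for Notch ligands, was also higher (90.0 against 9.50 CPM, 9.48-fold), which makes 2 of 53 (3.77%, beside 1.86% of all genes tested), though its call ended on the share of cells without Mural1 and it was 5.39-fold without Mural3. Outside smooth muscle-like over pericyte-like cells, the lists of nuclear partners and of proteases of Notch had no gene past the rule in any comparison. Of these 2 lists, Crebbp, an acetyltransferase, reached 193 CPM in pericyte-like cells. Adam10, the protease that first cuts Notch, reached 624 CPM in lymphatic-like cells.

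Genes with the most similar profile were sought over the 12 combinations of class and column set with at least 20 cells, by Pearson's r of log2(CPM + 1) over 13062 genes. For Notch1 they were Kbtbd2 (0.969), Cbfa2t3 (0.961) and Cdc42bpb (0.960), for Notch2 Src (0.987), Plekhh2 (0.980) and Dtx3 (0.967), for Notch3 Cysltr1 (0.968), Ppp1r14a (0.957) and Art3 (0.956), and for Notch4 Fnbp1l (0.985), Adrb1 (0.984) and Scn3b (0.979). Dll1 was closest to Clec12b (0.999), Aplnr (0.995) and Nos3 (0.990), Dll4 to Casz1 (0.992), Abi3 (0.990) and Gimap4 (0.984), Jag1 to Crcp (0.914) and Tmem41a (0.906), and Jag2 to Ecscr (0.973), Enpp4 (0.972) and Clec9a (0.968). Heyl was closest to P2ry14 (0.980), Ptgir (0.979) and Rasl12 (0.978), and Nrarp to Adcy9 (0.969), Fermt2 (0.961) and Tanc1 (0.940). Among members the highest values were 0.949 between Notch4 and Jag2, 0.930 between Dll4 and Jag2, 0.899 between Notch4 and Dll4 and 0.885 between Notch3 and Heyl, and the lowest was -0.828 between Notch2 and Jag2. Src, Cysltr1, Art3, Adrb1, Clec12b, Aplnr, Casz1, Gimap4, Tmem41a, Ecscr, Enpp4, Ptgir, Rasl12 and Adcy9 were not held out of the clustering that made the classes. Aplnr was also a marker used to name general capillary-like cells. Part of the likeness of these genes may thus be built in. The 12 points share classes and sets, and several genes were near 0 in most of them, so r is a description with no test.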

How the data were processed

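Single cells from lungs of 3 reporter genotypes were sequenced by SMART-seq2, per the labels. Per the submitters' processing notes STAR 2.4.2a and mm10 were used; the counting program, annotation and filter on cells are not given in the sources used here. The authors deposited raw counts per gene and cell and a normalized table (a score, each count scaled to 500000 reads per cell and rounded): all 33009792 recomputed values lay within 1 of it. The raw counts were used, without the eGFP reporter row, which leaves 21947 genes; the normalized table served for that check and as an alternative. Columns were matched to populations by their headings. All 1504 cells were kept; depth was 100229 to 609242 reads per cell.

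The members and all gene lists were chosen with earlier results of these data known. The Notch lists and a seeded draw of the other genes that are not markers (10953 genes in all) were held out. Cells were clustered on the other 10994 (log of counts per 10000 + 1, 2000 variable genes, 30 components, 15 neighbours, Leiden resolution 1, seed 1), giving 14 clusters. Clusters were named from listed markers where 40% or more of a type's marker and cell pairs had a read, and called mixed at 50% or more for epithelial or leukocyte markers. Cells were marked doublet-like at 5 or more endothelial markers together with 5 or more markers of pericytes, of smooth muscle or of fibroblasts. These (88 cells, 5.85%) were kept, and left out as an alternative. Mixtures of other types were not marked.

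CPM of summed counts carries exact Poisson intervals, shares exact Clopper-Pearson intervals and folds exact conditional intervals (95%, counting error only); reads without molecular identifiers are not independent molecules. Sides with under 3 reads were set to 3 for the rule and for log2 folds, while a printed ratio with 1 to 3 reads on a side uses those reads, and a side needed at least 20 cells. Every population is 1 sample, so no test was made and the size rule stands in for one. All 10 members are named. Other pathway genes are named where they passed, else the most abundant of a list; similar genes are the 3 highest by r, with r of at least 0.9, leaving out predicted, ribosomal protein and mitochondrial genes. Among 250-base promoter windows, none was matched for Heyl. The size rule, the ratio intervals and the clustering were run on simulated counts with known folds. Only well expressed genes were changed there, and recovery was required only for folds well above 4. Calls near the limits of the rule, and genes read in few cells, were not tested in this way. Tools were Python 3.11.15, numpy 2.4.6, scipy 1.17.1, pandas 2.3.3, scikit-learn 1.9.0, leidenalg 0.10.2, igraph 0.11.9, matplotlib 3.10.9, R 4.3.3 and edgeR 4.0.16 (scaling factors only).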

Additional observations from a re-analysis of the deposited data

How the results depend on the processing

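Of 98 counts of members past the rule under an alternative, 88 were within 1.5 times the count as reported. In all 93 folds were followed, of members whether or not they passed and of other pathway genes that passed. None of the folds past the rule changed sign. Folds of members that did not pass were not part of that check, and some of them turned under other scalings, as given above. With no minimum level the counts were 7 for Cldn5-eGFP over Mural3, 4 for Mural1 and Mural2 over Mural3, 2 for aerocyte-like (Dll1 and Heyl) and 5 for lymphatic-like over general capillary-like cells, and 5 for smooth muscle-like over pericyte-like cells, against 4, 2, 0, 2 and 3. With a fold of 2 the count was 5 for Mural1 and Mural2 over Mural3 and 1 for aerocyte-like cells (Notch4). Without doublet-like cells, and without mixed cells, Mural1 and Mural2 over Mural3 gave 1 (Notch3). Leaving out each column set gave 5 to 6 members for Cldn5-eGFP over Mural1 and Mural2, 4 over Mural3, 1 to 2 for Mural1 and Mural2 over Mural3, 0 for aerocyte-like cells, 3 for smooth muscle-like over pericyte-like cells (not run without Mural2, which leaves under 20 cells) and 3 to 4 over fibroblast-like cells. For lymphatic-like cells leaving out an EC set was not run for the same reason. The cause of these changes was not tested. Clustering at resolution 0.5 or 2, or holding out another draw of genes, gave the same counts of members in each direction.

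TMM and median-ratio scaling moved the median of all genes by up to -0.48 (log2, pericyte- and smooth muscle-like over fibroblast-like cells). They added Notch2 as lower in Cldn5-eGFP over Mural3, and ended the Notch2 call in smooth muscle-like over pericyte-like and the Heyl call over fibroblast-like cells. Over all genes, the higher and lower calls became 358 and 719 for Cldn5-eGFP over Mural3 (447 and 566 as reported; median-ratio), 109 and 67 for Mural1 and Mural2 over Mural3 (163 and 32; TMM), 87 and 50 for aerocyte-like cells (60 and 55; median-ratio) and 147 and 195 for pericyte- and smooth muscle-like over fibroblast-like cells (204 and 138; TMM). Counts of all genes past the rule with no minimum, and with a fold of 2, were 5628 and 1540 for Cldn5-eGFP over Mural1 and Mural2 (930 as reported), 6407 and 1716 over Mural3 (1013), 3787 and 671 for Mural1 and Mural2 over Mural3 (195), 4091 and 326 for aerocyte-like cells (115), 4349 and 674 for lymphatic-like cells (321), 2889 and 1022 for smooth muscle-like over pericyte-like cells (482) and 3136 and 749 for pericyte- and smooth muscle-like over fibroblast-like cells (342). No paired analysis was possible because the columns carry no replicate numbers that match samples across groups.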

Other observations

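The 16 general capillary-like cells with a read of Gja5, an arterial gap junction gene, were set beside the 646 without one, a split chosen after the data were seen. They had 578 against 269 CPM of Dll4, 563 against 294 of Hey1, 89.1 against 17.3 of Nrarp, 477 against 302 of Notch1, 295 against 386 of Notch4 and 8.31 against 29.6 of Jag2. With 16 cells of 1 sample these are descriptions with no test.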
